A study of Mus musculus with 19 samples.

Results

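The genes described here are 8 receptors of the tumour necrosis factor (TNF) receptor superfamily, Tnfrsf12a, Tnfrsf1a, Tnfrsf1b, Tnfrsf10b, Tnfrsf11b, Relt, Fas and Ltbr. They were taken by name, each matched through its Ensembl identifier to 1 of the 55487 gene rows of the count table. All 8 were found, and all 8 passed the filter on low counts that left 15138 genes for testing. The cells were mouse hepatic stellate cells (HSCs), the vitamin A-storing pericytes of the liver sinusoid, which become collagen-producing myofibroblasts when plated. They came from the livers of healthy, untreated male Balb/c mice aged 23 to 24 weeks and were sorted on the ultraviolet signal of their retinoid droplets. RNA was collected from uncultured cells (0 h, n = 2) and after 3, 6, 12, 18, 24 and 96 h on collagen-coated plastic (n = 3 each, except n = 2 at 24 h), which makes 19 samples. All cultured samples shared one medium, with 10% fetal bovine serum, which was renewed after 3 h and 24 h, and no other agent was given. Each sample joins 2 technical repeats, and the samples come from 2 isolation dates.

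TNF receptors bind trimeric ligands of the TNF family outside the cell and recruit adaptor proteins inside it. Receptors with a death domain, such as Tnfrsf1a, Fas and Tnfrsf10b, can assemble complexes that activate caspases. Receptors without one recruit TRAF adaptors and activate NF-kB and MAP kinases, which is not exclusive to them. Some members are soluble decoys that hold ligand away from its signalling receptor, and Tnfrsf11b (osteoprotegerin) is one of these. In the liver the family takes part in inflammation, regeneration and the survival or death of stellate cells and hepatocytes.

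Libraries were made with a 3′ tag protocol (QuantSeq), in which a transcript yields reads near its 3′ end. Totals ranged from 2073171 to 7690892 counts per sample, with a median of 4954915. A count of 3, used as the limit behind a value of 0, corresponded to between 0.386 and 1.51 CPM (counts scaled to a common library size), for counting error only. Values below are CPM scaled by the trimmed mean of M values (TMM), and they are compared between times within a gene, not between genes. A gene was called higher or lower when the Benjamini-Hochberg adjusted p of edgeR's quasi-likelihood test was below 0.1 and the fold exceeded 2. Every comparison with 0 h uses the same 2 uncultured samples, so these comparisons are not independent of each other. In bulk samples, fewer cells of a type and less RNA per cell cannot be told apart.

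The labelled cell type was checked against fixed markers. The summed level of 11 HSC markers was 29533 to 33660 CPM at 0 h with all 11 detected, and it was 2033 to 2040 CPM at 24 h. Dcn made the largest part of this sum, with a mean of 19179 CPM at 0 h. All 11 had a lower mean at 96 h than at 0 h, though Des differed little (112 and 123 CPM). The summed level of 6 markers of activated HSCs was 909 to 1586 CPM at 0 h and 5150 to 7259 CPM at 96 h. Acta2 had the largest difference, with means of 94.6 CPM at 0 h and 3169 CPM at 96 h. Only Col1a2 had a lower mean at 96 h (463 CPM) than at 0 h (631 CPM). At 12 h Col1a1 (75.1 CPM, 304 at 0 h) and Col1a2 (61.7 CPM) were both below 0 h. The summed markers of macrophages, hepatocytes and sinusoidal endothelial cells were highest at 0 h or 3 h. The 15 Kupffer cell and macrophage markers summed to 548 to 612 CPM at 0 h and 37.7 to 60.3 CPM at 6 h, and the 7 hepatocyte markers to 3065 to 6852 CPM at 0 h and 87.9 to 366 CPM at 6 h. The 7 sinusoidal endothelial markers summed to 543 to 755 CPM at 0 h, 789 to 2525 CPM at 3 h, 180 to 723 CPM at 6 h and 8.76 to 165 CPM at 96 h. Within this list Cdh5 had means of 34.4, 65.7 and 132 CPM at 0, 3 and 12 h, and Lyve1 0, 7.88 and 15.9 CPM. The other markers of the list had lower means at 12 h than at 3 h. Of 6 lymphocyte markers, 1 was detected in 1 library, Cd3e at 3 h, and the bile duct keratins Krt19 and Krt7 were at 0 in every library. The part of these cells in the results below was not tested.

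**Figure D1:**
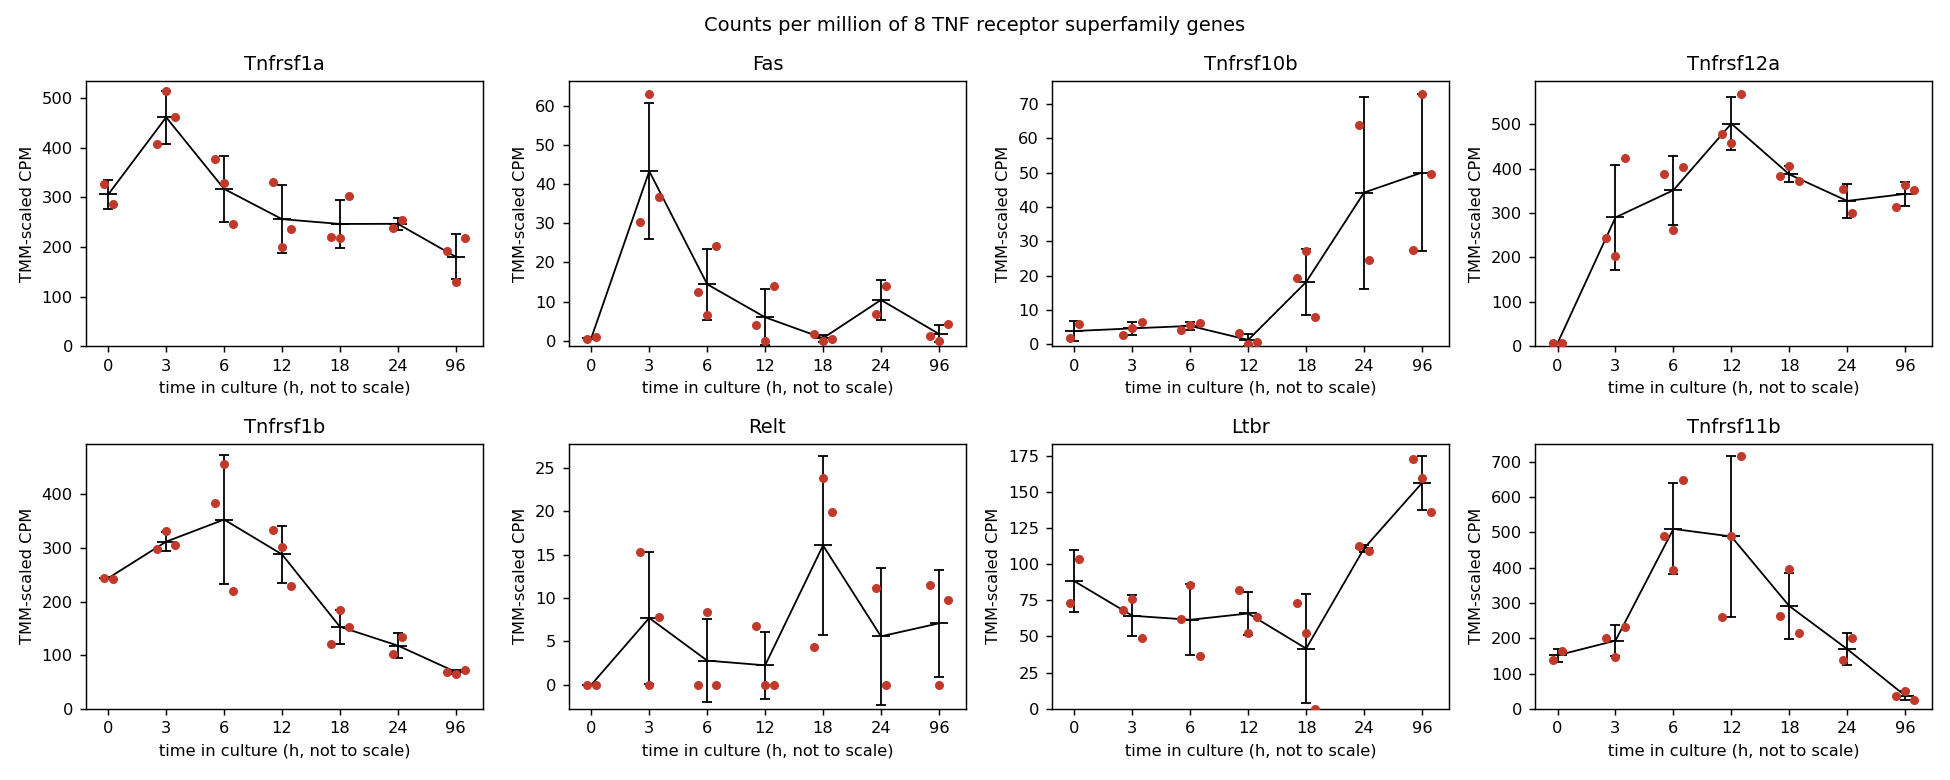
TMM-scaled CPM of the 8 receptor genes (vertical axes, each on its own scale) against time in culture in hours (horizontal axes, not to scale). Red points are samples, and black lines join the means with bars of 1 SD (n = 2 at 0 h and 24 h, otherwise 3). Tnfrsf12a lay at 6.27 and 6.53 CPM at 0 h and at 203 or above in every cultured sample, while Tnfrsf1b and Tnfrsf11b were lowest at 96 h.

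Over the 7 times, 5 of the 8 receptors passed edgeR's F test for any change (adjusted p below 0.1), against 27.4% of all genes tested. These were Tnfrsf12a (adjusted p = 3.4e-07), Tnfrsf1b (3.2e-05), Tnfrsf11b (5.0e-05), Tnfrsf1a (0.0103) and Tnfrsf10b (0.0145). Fas (0.108), Ltbr (0.642) and Relt (0.713) missed the threshold, which does not show that their levels were steady. Against 0 h, the receptors called after 3, 6, 12, 18, 24 and 96 h numbered 1, 2, 2, 1, 2 and 3 of the 8, where 5.58%, 11.3%, 17.7%, 15.9%, 9.51% and 10.9% of all genes tested were called. Calls up to 18 h were all higher, and the 3 lower calls fell on Tnfrsf1b at 24 h and on Tnfrsf1b and Tnfrsf11b at 96 h. At the same 6 times, 4, 3, 2, 4, 4 and 3 receptors lay wholly above the uncultured samples, where 17.1%, 17.7%, 20.3%, 19.1%, 26.1% and 22.2% of all genes did so. Those wholly below numbered 0, 0, 0, 2, 2 and 3, where 18%, 21.2%, 22.9%, 21.3%, 22.7% and 19.7% of all genes did so. With group means under the 3-count limit set to that limit, the median log2 ratios to 0 h over the 8 receptors were 0.47, 0.71, 0.41, 0.47, 1.11 and 0.53 in the order of these times, beside a median of 0 over all genes tested at each of them. Genes under the limit at both times have a ratio of 0 by this rule, which draws the median over all genes toward 0.

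Among the death domain receptors, Tnfrsf1a (TNF receptor 1, ENSMUSG00000030341), the widely expressed receptor for TNF, was detected in all 19 libraries. The gene lies on the plus strand at chr6:125349362-125362484 (GRCm38, GENCODE annotation, the build of the deposited counts), with no other annotated gene overlapping it. Its level was 326 and 286 CPM at 0 h and 408, 516 and 461 CPM at 3 h. It then lay at 377, 328 and 246 CPM at 6 h, and at 192, 130 and 218 CPM at 96 h. All 3 samples at 3 h were above both uncultured samples, and all 3 at 96 h were below them, while the samples at 6 h overlapped the uncultured ones. The log2 fold change against 0 h was 0.59 ± 0.27 (SE) at 3 h (adjusted p = 0.301) and -0.76 ± 0.26 at 96 h (adjusted p = 0.0868, below the fold limit), so neither was called. Of the 7 times, Tnfrsf1a had its highest mean, 462 CPM, at 3 h and its lowest, 180 CPM, at 96 h. Between them it fell by 1.36 ± 0.24 on the log2 scale (adjusted p = 0.00107), where 7.48% of all genes were called lower. This difference was called, but the adjusted p does not allow for the choice of the highest and lowest times. The Tnfrsf1a means from 6 h to 24 h were 246 to 317 CPM, and neighbours in rank among these times and 0 h had overlapping samples.

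Fas (ENSMUSG00000024778), the receptor for Fas ligand, which triggers caspase-8 activation, lies on the plus strand at chr19:34290666-34327772 (GRCm38). A short same-strand RNA gene, Gm27818, is annotated inside it, and reads of that gene cannot be told from reads of Fas by position alone. Fas was barely detected in uncultured cells, with 2 counts in each library (0.501 and 1.00 CPM). It stood at 30.2, 63.0 and 36.6 CPM at 3 h and at 12.5, 6.56 and 24.3 CPM at 6 h. Every sample at 3 h was above every sample at 0 h and at 6 h. The summed sinusoidal endothelial markers were also highest at 3 h, against 543 to 755 CPM at 0 h and 180 to 723 CPM at 6 h. In the same sample order as Fas they were 2525, 806 and 789 CPM at 3 h, with 1 sample far above the others. The part of these markers in the level of Fas was not tested. Later levels were mixed, with 4.17, 0 and 13.9 CPM after 12 h and 1.71, 0 and 0.372 CPM after 18 h. The samples at 24 h stood at 6.87 and 14.01 CPM, and those at 96 h at 1.15, 0 and 4.21 CPM. At 12, 18 and 96 h 1 library each was at 0.

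The summed counts at 3 h and 0 h gave a ratio of 66.3 for Fas, with a 95% interval of 25.7 to 244 that covers counting error only, and the ratio was 22.4 (8.62 to 83.0) at 6 h. The model, which also takes the spread between samples, gave an adjusted p of 0.233 at 3 h and 0.263 at 6 h, so neither was called. The call turned with the tool and the samples fitted: the adjusted p at 3 h was 0.0110 with DESeq2 and 0.0211 with edgeR fitted to the 3 h and 0 h samples alone, and it was 0.0841 at 6 h with DESeq2. The fall from 3 h to 18 h passed (log2 fold change -5.94 ± 1.94, adjusted p = 0.0587), in a comparison where 8.28% of all genes were called lower. These times had the highest and lowest mean of Fas, and the adjusted p does not allow for that choice. That call was lost without 18 h replicate 2 (adjusted p = 0.140), 18 h replicate 3 (0.157) or 3 h replicate 2 (0.118).

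The RefSeq promoter windows (GRCm38.p6, 250 bases before to 50 after the start) were found for 6 of the 8 receptors, all but Tnfrsf10b and Tnfrsf11b. They were searched on both strands for the AP-1 motif TGANTCA, the TEAD motif GGAATG, the NF-kB motif GGNNTTTCC and the p53 half-site. AP-1 and NF-kB respond to stress and cytokines and TEAD factors act with YAP. The letters occur in 7.81% (AP-1), 14.7% (TEAD), 5.82% (NF-kB) and 8.36% (p53 half-site) of the 32851 windows of this length. Fas held 1 AP-1 match and Tnfrsf1b 2 TEAD matches, and the windows of Tnfrsf12a, Tnfrsf1a, Relt and Ltbr held none of the 4 motifs. A match is a string of letters and not a bound site, and no match says only that the letters are absent from the window. The Fas window, shown because Fas had its highest level at the first culture time, lies at chr19:34290409-34290708 on the plus strand, and its AP-1 match is in capitals.
Fas: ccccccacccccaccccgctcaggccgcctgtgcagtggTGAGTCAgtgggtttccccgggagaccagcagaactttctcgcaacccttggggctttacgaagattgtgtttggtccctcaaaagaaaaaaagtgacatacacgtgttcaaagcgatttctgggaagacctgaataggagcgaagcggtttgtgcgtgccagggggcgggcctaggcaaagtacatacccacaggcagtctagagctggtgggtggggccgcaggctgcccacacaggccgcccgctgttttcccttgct

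Tnfrsf10b (ENSMUSG00000022074), the mouse death receptor for TRAIL, lies on the plus strand at chr14:69767472-69784411 and is overlapped by no other annotated gene. It stood at 1.76 and 6.03 CPM at 0 h, and its samples from 3 h to 12 h lay between 0 and 6.53 CPM. From 18 h it was higher, with 19.3, 27.2 and 8.01 CPM at 18 h, 63.9 and 24.4 CPM at 24 h, and 27.5, 73.0 and 49.5 CPM at 96 h. All 8 samples from 18 h on exceeded all 11 samples of the first 4 times.

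Against 12 h, its lowest time, Tnfrsf10b at 96 h was higher by 5.26 ± 1.22 on the log2 scale (adjusted p = 0.00941), where 6.96% of all genes were called higher. Against 6 h it was higher by 3.21 ± 1.10 (adjusted p = 0.0774), where 5.76% were called higher. The second call was lost with the replicate number as a block (adjusted p = 0.105), with no filter on low counts (0.121) and without each sample at 6 h, 24 h replicate 1 and 96 h replicates 2 or 3, with adjusted p between 0.110 and 0.190. Against 0 h, whose replicate 2 had 7 counts and replicate 3 had 12, the log2 fold change was 3.52 ± 1.38 at 24 h (adjusted p = 0.165) and 3.70 ± 1.35 at 96 h (adjusted p = 0.114), and neither was called. DESeq2 gave adjusted p of 0.0145 and 0.00302 for the same differences. The difference at 96 h was also called with edgeR fitted to the 96 h and 0 h samples alone (3.71, adjusted p = 0.0440). With scaling by library size alone it was called too (3.82, adjusted p = 0.0970). Leaving out 12 h replicate 1 or 12 h replicate 2 gave 0.0688 and 0.0379 at 96 h, and leaving out 12 h replicate 2 gave 0.0595 at 24 h. Without 12 h replicate 1 the difference at 12 h, -1.57 ± 1.16 with all samples, became -3.38 and was called (adjusted p = 0.0924).

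**Figure D2:**
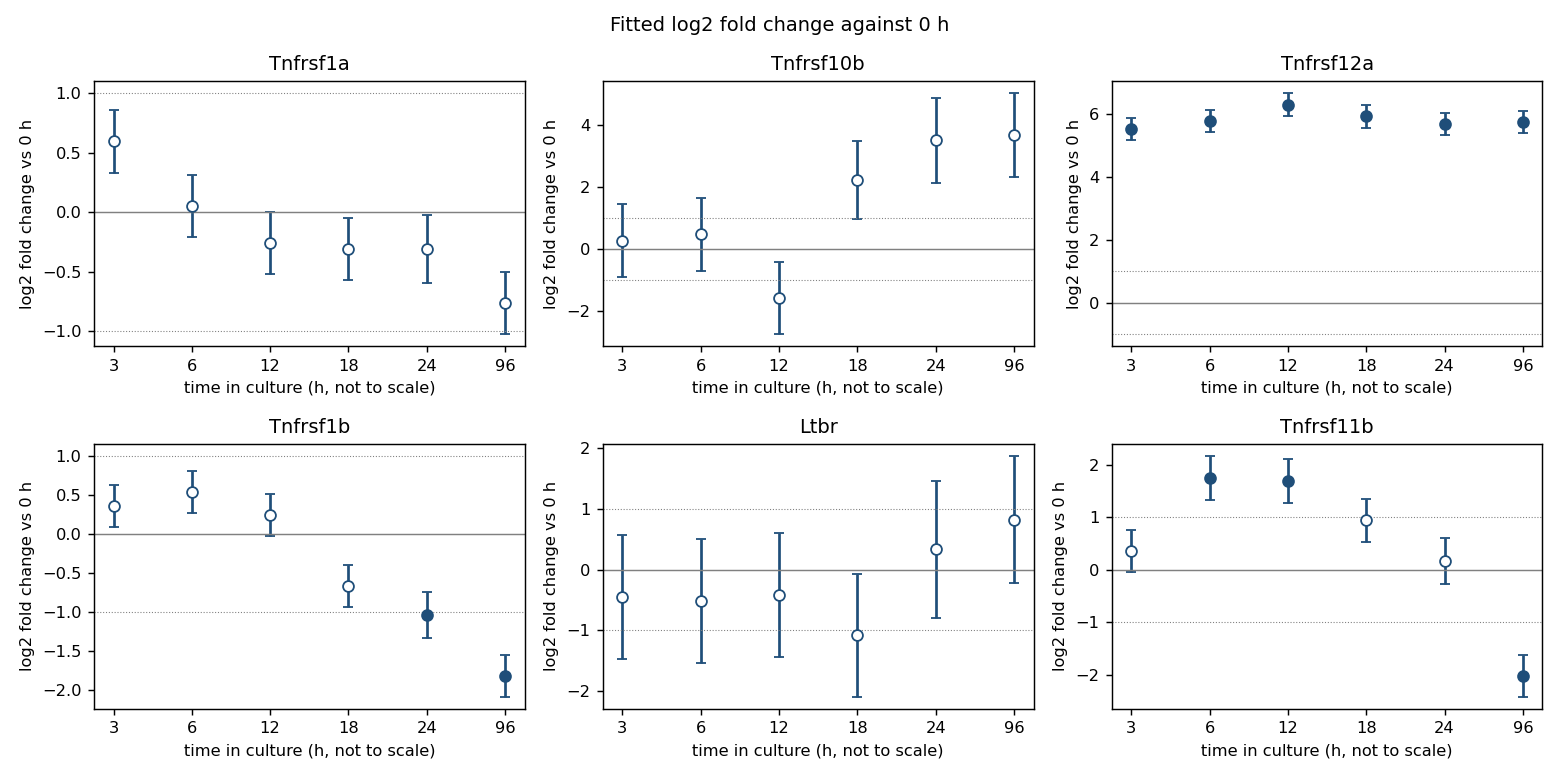
Fitted log2 fold change against 0 h (vertical axes) at each culture time in hours (horizontal axes, not to scale) for 6 receptors, with bars of 1 SE. Filled points were called (adjusted p below 0.1 and fold over 2), open points were not, and dotted lines mark the fold limit. Tnfrsf12a stayed between 5.50 and 6.29, and Tnfrsf11b went from 1.75 at 6 h to -2.03 at 96 h. Fas and Relt are left out because their 0 h levels were 2 counts a library and 0.

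Tnfrsf12a (ENSMUSG00000023905), the receptor for TWEAK, also named Fn14, a small receptor without a death domain, had the largest called change of the 8. It lies on the minus strand at chr17:23675445-23677468 with no overlapping gene. Its level was 6.27 and 6.53 CPM at 0 h, from 25 and 13 counts. At 3 h it was 243, 203 and 424 CPM, and at 12 h it was 478, 457 and 569 CPM. The 17 cultured samples were all far above the 2 uncultured ones, with no overlap at any time.

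The log2 fold change of Tnfrsf12a against 0 h was 5.50 ± 0.35 at 3 h (adjusted p = 2.2e-07), a 45.2-fold difference, and 6.29 ± 0.36 at 12 h (adjusted p = 4.7e-08), a 78.2-fold difference. The values for 6, 18, 24 and 96 h were 5.78 ± 0.36, 5.92 ± 0.36, 5.67 ± 0.36 and 5.74 ± 0.35, and all were called. No pair of culture times was called, although 12 h against 3 h, whose samples did not overlap, passed on adjusted p and missed the fold limit (log2 fold change 0.79 ± 0.23, adjusted p = 0.0372). Without 3 h replicate 3 that difference was 1.13 and was called (adjusted p = 0.00175). Ranked by mean, the times ran from 12 h (501 CPM) through 18 h (387), 6 h (351), 96 h (343), 24 h (327) and 3 h (290) to 0 h (6.40). Of neighbours in this order only 3 h and 0 h differed by the test, while the samples at 12 h and 18 h did not overlap (adjusted p = 0.633). Within the replicate numbers that have an uncultured sample, the difference on the log2(CPM + 1) scale lay between 4.81 and 5.98 for number 2, and between 5.55 and 6.24 for number 3. The sinusoidal endothelial markers summed to 543 to 755 CPM at 0 h and to 2525, 806 and 789 CPM in replicates 1, 2 and 3 at 3 h. This was the step at which Tnfrsf12a rose, to 243, 203 and 424 CPM in the same order. These markers summed to 8.76 to 165 CPM at 96 h, when the Tnfrsf12a level was 313, 363 and 353 CPM. Their part in the level of Tnfrsf12a was not tested. The Tnfrsf12a window, shown because this gene had the largest called difference and its window held none of the searched motifs, lies at chr17:23677400-23677699 on the minus strand.
Tnfrsf12a: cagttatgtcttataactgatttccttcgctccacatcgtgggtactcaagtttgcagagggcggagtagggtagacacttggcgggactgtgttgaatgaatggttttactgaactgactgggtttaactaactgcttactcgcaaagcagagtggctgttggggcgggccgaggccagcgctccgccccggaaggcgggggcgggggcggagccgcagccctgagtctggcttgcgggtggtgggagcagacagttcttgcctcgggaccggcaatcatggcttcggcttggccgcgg

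Tnfrsf1b (TNF receptor 2, ENSMUSG00000028599), which binds TNF, recruits TRAF2 and has no death domain, lies on the minus strand at chr4:145213463-145246870 with no overlapping gene. Its level was 245 and 243 CPM at 0 h, 298, 331 and 306 CPM at 3 h, and 383, 456 and 220 CPM at 6 h. It was 122, 184 and 153 CPM at 18 h, 102 and 134 CPM at 24 h, and 68.3, 65.1 and 72.6 CPM at 96 h. The 3 samples at 96 h were the lowest of the 19, and at 3 h all 3 samples lay above both uncultured ones, while 6 h and 12 h overlapped 0 h.

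Against 0 h the log2 fold change of Tnfrsf1b was -1.05 ± 0.30 at 24 h (adjusted p = 0.0394) and -1.83 ± 0.27 at 96 h (adjusted p = 0.000245), both called lower, where 3.86% and 5.03% of all genes were called lower. The increase to a mean of 353 CPM at 6 h was not called (log2 fold change 0.53 ± 0.27, adjusted p = 0.258). The call at 24 h was lost without 0 h replicate 2 (adjusted p = 0.147), 0 h replicate 3 (0.131), 24 h replicate 1 (0.322) or 24 h replicate 2 (just above the threshold), and with scaling by library size alone (0.123), whereas the call at 96 h held whichever of the 19 samples was left out. From 6 h to 96 h it fell by 2.36 ± 0.25 on the log2 scale (adjusted p = 1.1e-05), where 7.46% of all genes were called lower.

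Tnfrsf1b is strongly expressed by macrophages, so the macrophage markers were set beside it. Their summed level fell from 548 to 612 CPM at 0 h to 37.7 to 60.3 CPM at 6 h, when Tnfrsf1b had its highest mean. Clec4f, which defines Kupffer cells, had a mean of 62.0 CPM at 0 h and 0 CPM at 12 h and 96 h, and Marco was at 0 in all 19 libraries. Csf1r, the receptor for macrophage colony-stimulating factor, remained at 23.9 CPM at 12 h and 16.6 CPM at 96 h. The HSC markers summed to 17676 to 18891 CPM at 6 h and 2977 to 3340 CPM at 96 h. The sinusoidal endothelial markers summed to 543 to 755 CPM at 0 h, 789 to 2525 CPM at 3 h, 180 to 723 CPM at 6 h and 8.76 to 165 CPM at 96 h. The part of macrophages, endothelial cells or HSCs in the level of Tnfrsf1b was not tested. The Tnfrsf1b window, shown for its TEAD matches in capitals, lies at chr4:145246821-145247120 on the minus strand.
Tnfrsf1b: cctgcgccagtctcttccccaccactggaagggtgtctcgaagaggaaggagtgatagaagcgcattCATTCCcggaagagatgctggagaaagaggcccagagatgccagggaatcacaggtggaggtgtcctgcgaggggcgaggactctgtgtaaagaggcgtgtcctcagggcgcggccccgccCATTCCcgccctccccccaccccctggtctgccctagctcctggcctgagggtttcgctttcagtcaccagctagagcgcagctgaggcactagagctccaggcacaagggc

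**Figure D3:**
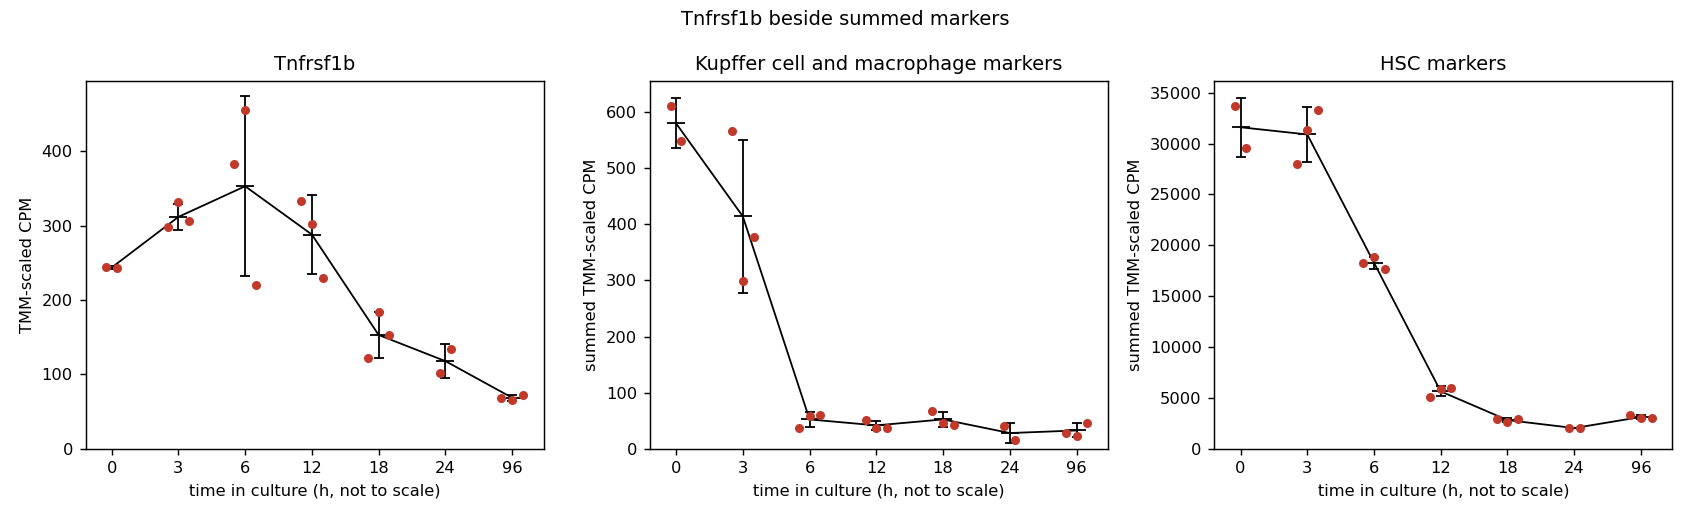
TMM-scaled CPM of Tnfrsf1b (left), and the summed TMM-scaled CPM of 15 Kupffer cell and macrophage markers (middle) and of 11 HSC markers (right), against time in culture in hours (not to scale). Red points are samples, and lines join means with bars of 1 SD. At 6 h the macrophage sum lay at 37.7 to 60.3 CPM while Tnfrsf1b lay at 220 to 456 CPM.

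Ltbr (lymphotoxin beta receptor, ENSMUSG00000030339), which activates the alternative NF-kB pathway through TRAF3 and NIK, lies on the minus strand at chr6:125306571-125313885, and 35476 bases separate it from Tnfrsf1a. Its level was 73.0 and 103 CPM at 0 h, 36.7 to 85.7 CPM from 3 h to 12 h, 113 and 109 CPM at 24 h, and 173, 160 and 136 CPM at 96 h. Samples at 24 h and 96 h lay above both uncultured ones. At 18 h 2 samples stood at 72.9 and 52.1 CPM and replicate 3 was listed at 0. The log2 fold change at 96 h was 0.83 ± 1.05 (adjusted p = 0.733), and no time was called. Other genes also had a library at 0: of genes with a mean of 50 to 150 CPM, the band of Ltbr, 13.8% had at least 1 library at 0. The share with exactly 1, as for Ltbr, was 7.67%. In 18 h replicate 3, 47 of the 3866 genes with a mean of 50 CPM or more were at 0 (1.22%).

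Relt (ENSMUSG00000008318), a receptor named for its expression in lymphoid tissue, lies on the minus strand at chr7:100845847-100863446. It was at 0 in 9 of the 19 libraries, including both at 0 h, and where it was detected it had 18 to 136 counts. All 3 samples at 18 h had reads, at 4.39, 23.9 and 19.9 CPM, and no other time did so in every sample. Their mean of 16.1 CPM was at least 10.7-fold higher than the 3-count limit of the shallower uncultured library. At the other culture times 1 or 2 libraries were at 0, with means of 2.24 to 7.70 CPM. No difference was called (adjusted p = 0.232 at 18 h). Of genes with a mean of 5 to 20 CPM, 79.1% had at least 1 library at 0, and 18.2% had 9 or more.

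Tnfrsf11b (osteoprotegerin, ENSMUSG00000063727), a secreted decoy for RANKL and TRAIL, lies on the minus strand at chr15:54250619-54278484 with no overlapping gene. It rose and then fell below its starting level. It stood at 138 and 165 CPM at 0 h, 489, 393 and 648 CPM at 6 h, and 259, 491 and 716 CPM at 12 h. It was 264, 396 and 214 CPM at 18 h, 137 and 201 CPM at 24 h, and 36.1, 50.6 and 24.8 CPM at 96 h. All samples at 6, 12 and 18 h were above both at 0 h, those at 24 h overlapped them, and all at 96 h were below them.

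Against 0 h the log2 fold change of Tnfrsf11b was 1.75 ± 0.42 at 6 h (adjusted p = 0.0136) and 1.69 ± 0.42 at 12 h (adjusted p = 0.0121), both called higher, where 6.98% and 8.6% of all genes were called higher. At 96 h it was -2.03 ± 0.40 (adjusted p = 0.00328), called lower. Between 3 h and 6 h Tnfrsf11b rose by 1.40 ± 0.36 (adjusted p = 0.0408), where 2.5% of all genes were called higher. Between 24 h and 96 h it fell by 2.19 ± 0.40 on the log2 scale (adjusted p = 0.00649), where 1.35% of all genes were called lower, and between 6 h and 96 h by 3.78 ± 0.40 (adjusted p = 9.7e-06). Without 0 h replicate 2 the calls at 6 h and 12 h were lost (adjusted p = 0.136 and 0.110). The rise from 3 h to 6 h was lost without 3 h replicate 1 (0.128), 3 h replicate 2 (0.186) or 6 h replicate 3 (0.156), and the fall after 24 h without 24 h replicate 2 (0.111).

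Genes with the most similar course were named by Pearson's r of log2 CPM over the 19 samples, among the 8581 genes whose mean level reached 10 CPM. The points of each r share libraries and times, so these values are descriptions. For Tnfrsf12a they were Supt16 (r = 0.977), Ppme1 (0.976) and Mak16 (0.965), and for Tnfrsf1a they were the interferon regulatory factor genes Irf9 (0.911) and Irf7 (0.875) with the survival gene Mcl1 (0.888). For Tnfrsf1b they were Mndal (0.937), Ltbp4 (0.928) and Klf9 (0.918), and for Tnfrsf11b Srsf7 (0.934), Pum2 (0.931) and Plk2 (0.929). Fas was most like Dlgap4 (0.847), the adhesion molecule gene Icam1 (0.815) and the NF-kB subunit gene Rela (0.808). Tnfrsf10b was most like Fam198b (0.832), Twf2 (0.822) and Rpl36a-ps1 (0.809), and Ltbr most like Dctn1 (0.933), Uvrag (0.907) and Pxn (0.864). Among the receptors themselves, Tnfrsf1a and Tnfrsf1b had r = 0.741, Tnfrsf1b and Tnfrsf11b 0.722, and Tnfrsf1b and Tnfrsf10b -0.766.

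The other genes of the pathway were taken from 7 lists of 79 genes, of which 57 had counts and 55 passed the filter. Of these 55, in the order of the 6 culture times, 4, 8, 8, 7, 4 and 4 were called higher than at 0 h and 0, 1, 5, 5, 2 and 4 were called lower. Of all genes tested, 4.19%, 6.98%, 8.6%, 7.64%, 5.65% and 5.83% were called higher at these times and 1.39%, 4.35%, 9.1%, 8.21%, 3.86% and 5.03% lower. The median log2 ratio of the 55, with low means set to the 3-count limit, lay between -0.05 and 0.34 over the 6 times. Of 20 other receptors 8 had counts and 7 passed. Tnfrsf23, a decoy receptor whose close paralog Tnfrsf22 could share its reads, was at 0 and 1.00 CPM at 0 h and had a mean of 96.4 CPM at 96 h, and it was called higher at all 6 times. Tnfrsf21 (death receptor 6) fell from a mean of 386 CPM at 0 h to 56.6 CPM at 12 h (log2 fold change -2.77 ± 0.37, adjusted p = 6.7e-05), and it was called lower from 12 h to 96 h. Ngfr, the p75 neurotrophin receptor, which HSCs express, was at 259 and 428 CPM at 0 h, fell to 8.14 to 17.4 CPM at 12 h, and was at 0 in all 8 samples from 18 h on. Eda2r, a receptor for ectodysplasin A2, had means of 1.38 CPM at 0 h and 86.1 CPM at 24 h and was not called.

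Of 18 ligands 8 had counts and 7 passed, and 1 or 2 of these were called lower at 12 h and 18 h, none higher. Lta, Ltb, Fasl and Tnfsf11, which encode ligands of Ltbr, Fas and Tnfrsf11b, had 0 counts in all 19 libraries. Tnfsf10, which encodes TRAIL, a ligand of Tnfrsf10b and Tnfrsf11b, was detected at low levels. It had 0 and 7.53 CPM at 0 h and 7.63, 2.88 and 0.436 CPM at 3 h. Later it had reads only in replicate 2 at 6 h (2.58 CPM) and replicate 1 at 24 h (0.858 CPM), and it was not called. Tnf was detected in 1 of 2 libraries at 0 h and 2 of 3 at 3 h, and in no library from 12 h on. Tnfsf12, which encodes TWEAK, the ligand of Tnfrsf12a, had means of 68.6 CPM at 0 h and 8.77 CPM at 18 h and was not called. Tnfsf13b was at 12.1 and 15.5 CPM at 0 h, and it was called lower at 12 h and 18 h, when it was at 0 in all libraries.

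Among the 6 genes that restrain NF-kB or caspase-8 signalling, those called higher after 3, 6, 12, 18, 24 and 96 h numbered 2, 3, 2, 3, 1 and 1, where 4.19%, 6.98%, 8.6%, 7.64%, 5.65% and 5.83% of all genes were called higher. Tnip1, which encodes a partner of A20, had a mean of 33.8 CPM at 0 h and 1253 CPM at 3 h (log2 fold change 5.23 ± 0.44, adjusted p = 4.0e-06), and it was called higher at every time. Tnfaip3, which encodes A20, had means of 10.3 CPM at 0 h and 327 CPM at 3 h (log2 fold change 4.96 ± 0.78, adjusted p = 0.00105), and it was called higher up to 18 h. Cflar, which encodes the caspase-8 inhibitor c-FLIP, was called higher at 6 h and 18 h, and Cyld was called lower at 12 h.

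Of 15 adaptor and ubiquitin ligase genes, 1, 2, 2, 1, 0 and 0 were called higher at the 6 times, where the shares of all genes called higher were those just given, and 2 were called lower, both at 96 h (5.03% of all genes). Birc3 (cIAP2) had a mean of 24.0 CPM at 0 h and 153 CPM at 6 h (log2 fold change 2.67 ± 0.63, adjusted p = 0.0112), and it was lower at 96 h (-1.73 ± 0.57, adjusted p = 0.0761). Traf6 was called higher from 6 h to 18 h, and Xiap was called lower at 96 h. Of 9 kinase genes, Chuk was called higher at 12 h (8.6% of all genes) and Map3k14 lower at 18 h (8.21%). Of 8 death machinery genes, 1 was called, Bak1, which was higher from 6 h to 96 h (5.65% to 8.6% of all genes), and it was at 0 in both uncultured libraries. Of the 3 genes that act on receptor shedding, Timp3, an inhibitor of the sheddase ADAM17, had 18.6 and 346 CPM at 0 h and a mean of 5128 CPM at 18 h (log2 fold change 4.82 ± 0.82, adjusted p = 0.000785), and Adam10 was called lower at 6 h and 12 h (4.35% and 9.1% of all genes).

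**Figure D4:**
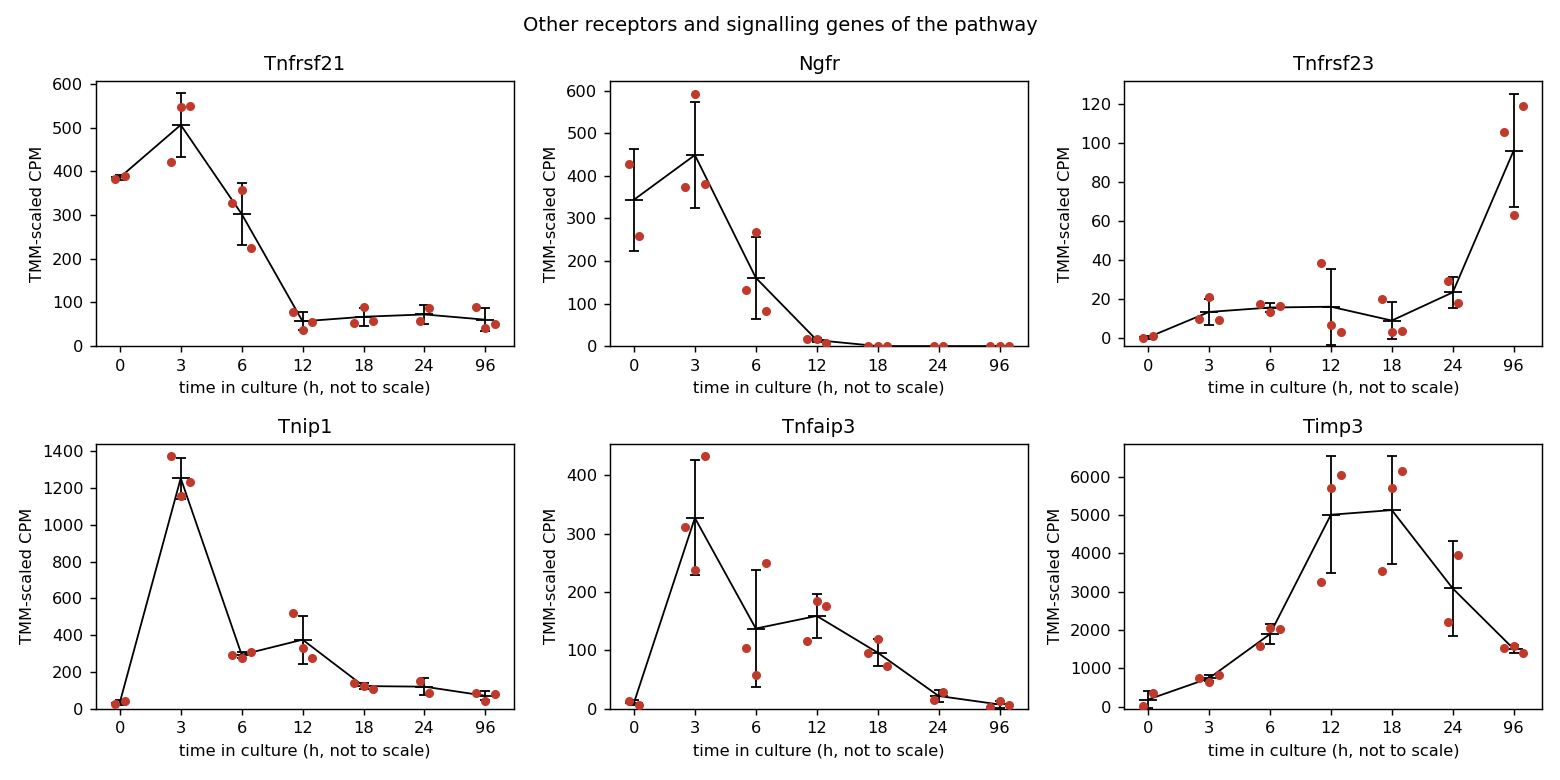
TMM-scaled CPM of 6 pathway genes (vertical axes, each on its own scale) against time in culture in hours (not to scale). Red points are samples, and lines join means with bars of 1 SD (n = 2 at 0 h and 24 h, otherwise 3). Tnip1 and Tnfaip3 were highest at 3 h, and Ngfr was at 0 from 18 h on.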

How the data were processed

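RNA of 19 samples was profiled as 3′ tag libraries. The authors mapped reads to the mouse genome with STAR and assembled genes with StringTie, per the study's methods, and deposited whole-number counts per Ensembl gene, in one table and not normalised. The counting step, its annotation and its strand setting are not given in the sources used here. Library totals were 2073171 to 7690892 counts, and intervals and the 3-count limit cover counting error only, since counts are treated as reads.

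Groups came from the sample titles. Counts were filtered (filterByExpr, default settings), scaled by TMM and fitted over all 19 samples in one model with edgeR 4.0.16 (quasi-likelihood, R 4.3.3), and p-values were adjusted over all 15138 genes and called at adjusted p below 0.1 with a fold over 2. The code was tested on simulated data. All 21 pairs of times were tested, and the pairs of 0 h with each time, of neighbouring times, of 96 h with 6 h and 12 h, and of 3 h with 12, 18 and 96 h were refitted under each alternative: DESeq2 1.42.0, other scaling, no filter, other thresholds, 2 groups only, isolation date or replicate number as a term, and each sample left out. Where 0 h or 24 h keeps 1 sample, that sample is assumed to vary like the other groups. The study describes the repeats of a time as independent, each of 2 technical repeats, and does not say whether they came from separate animals, so p-values measure the spread between these samples. Replicate number 2 marks one isolation date and numbers 1 and 3 the other. Same-numbered samples of different times had a mean residual correlation of 0.0143 over 51 pairs, and others -0.0070 over 103. Genes named outside the 8 receptors were those called against 0 h at 3 or more culture times or, in lists with fewer than 6 such genes, drawn from the 6 with the highest mean. Other genes were named after their values were seen. The receptors, lists and markers were chosen with earlier results of these data known. Gene positions are from GENCODE M21 and promoters from RefSeq, both GRCm38. Figures were drawn with matplotlib.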

Additional observations from a re-analysis of the deposited data

How the results depend on the processing

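Scaling by library size alone changes each sample by 1 factor for all genes, so it shifts the log2 ratios to 0 h by a similar amount for each gene. From the mean log2 TMM factors, this shift was 0.24 at 18 h, 0.28 at 24 h and 0.15 at 96 h. Fitted log2 fold changes need not move by exactly this amount: that of Tnfrsf10b at 96 h went from 3.70 to 3.82. Library size scaling put Ltbr at 125 CPM at 24 h, Tnfrsf12a at 5.95 CPM at 0 h, 424 at 18 h and 368 at 24 h, Tnfrsf1a at 277 at 24 h, and Tnfrsf1b at 226 at 0 h and 279 at 3 h. It also called 2 receptors at 18 h, 1 at 24 h and 1 between 3 h and 18 h, and gave Fas a log2 fold change of 0.13 at 18 h (-0.11 in the report). DESeq2 called 2 receptors at 3 h, 1 between 12 h and 18 h and 2 between 3 h and 12 h. Of all genes tested it called 10.1%, 2.8% and 20% in these comparisons, against 5.58%, 0.225% and 14.4% with edgeR. DESeq2 also called Fas at 6 h and between 3 h and 96 h, where edgeR did not. It further called Tnfrsf10b at 24 h and 96 h and Tnfrsf1a between 3 h and 18 h, which edgeR did not. DESeq2 turned Tnfrsf11b at 24 h to -0.063 and Tnfrsf1a at 6 h to -0.18. No filter turned Tnfrsf1a at 6 h to -0.0049 (0.05 in the report). Fitting only the 2 groups compared called 2 receptors at 3 h and 2 at 18 h. Of the other pathway genes at 3, 6, 18 and 24 h DESeq2 called 11, 17, 20 and 12 (4, 9, 12 and 6 in the report). Of all genes tested it called 10.1%, 17.1%, 20.3% and 14.7% at these times, against 5.58%, 11.3%, 15.9% and 9.51% in the report. An adjusted p below 0.05 left 5 of 8 pathway genes at 96 h and 1 of 2 receptors between 3 h and 18 h. With no fold limit 3 receptors were called between 3 h and 12 h (1 with the limit). For these alternatives smaller changes in the number of genes called are not listed. The cause of the changes was not tested.

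With the replicate number as a block, 3 receptors were called at 96 h and 2 at 6 h, 12 h and 24 h, 6 receptors passed the test for any change (5 in the report), Ltbr at 24 h turned to -0.20 (0.33 in the report), and apart from Tnfrsf10b between 6 h and 96 h the only other change in the number of receptors called was 5 for 4 between 3 h and 96 h. Isolation date as a term also gave 5 between 3 h and 96 h and 6 for any change, and changed no other number of receptors called. A robust estimate of the spread, chosen after seeing the data, changed no number of receptors called. These statements cover the 16 pairs of times refitted.

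Leaving out 1 sample at a time gave 1 to 3 called receptors at 12 h, 1 to 3 at 24 h, 1 to 2 at 6 h, 0 to 1 between 3 h and 6 h, 0 to 3 between 3 h and 12 h, 1 to 3 between 3 h and 18 h and 0 to 1 between 24 h and 96 h. Other pathway genes called at 12, 18, 24 and 96 h were 7 to 14, 6 to 13, 3 to 7 and 4 to 9. Log2 fold changes against 0 h that changed sign were Fas at 18 h (-1.85 to 0.43) and 96 h (-0.39 to 1.84), Tnfrsf10b at 3 h (-0.33 to 1.39) and 6 h (-0.17 to 1.57), Tnfrsf11b at 24 h (-0.14 to 0.41) and Tnfrsf1a at 6 h (-0.091 to 0.21), none of them called with all samples. The 2 samples at 0 h and their 2 counts of Fas limit every comparison with uncultured cells.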
